A study of Caenorhabditis elegans with 2 samples.

Results

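The genes cel-mir-8196a and cel-mir-8196b are a pair of related microRNA (miRNA) genes on the X chromosome of Caenorhabditis elegans, and they are 2 of 261 annotated nuclear miRNA genes. They were chosen by the signal of the SNPC-1.3 region beside each of them, and the regions described are those whose summit lay within 1 kb of either gene. That rule took 2 of 1676 regions that passed the irreproducible discovery rate threshold (IDR peaks), 2 of 30000 pooled candidates, 2 of 30000 candidates of replicate 1 and 3 of 30000 candidates of replicate 2. Signal, rank and peak status are therefore given as a description, without a test.

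The chromatin came from whole young adult hermaphrodites of strain YL485, in which a stable transgene adds GFP and FLAG to the C terminus of SNPC-1.3 (F08F3.9). Tagged protein was pulled down from sonicated chromatin with an antibody to GFP and the bound DNA was sequenced (ChIP-seq). There was 1 group, with 2 samples labelled as biological replicates and no second genotype, stage or treatment. The whole animal mixes germline and somatic cells, so occupancy in few cells and weak occupancy in many cannot be told apart.

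The small nuclear RNA activating protein complex (SNAPc) binds the proximal sequence element, a short promoter motif upstream of the genes for spliced leader (SL) RNAs and small nuclear RNAs (snRNAs), and brings RNA polymerase to them. SNPC-1.3 is related to a SNAPc subunit and is known for its role at piRNA genes in the male germline. A miRNA is cut from a hairpin in a longer primary transcript, most often one made by RNA polymerase II, and pairs with its targets chiefly through the seed, bases 2 to 8 of the mature strand.

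The annotated arms of both hairpins are shown first, because they are the mature products for which the genes are named. Sequences were read from the RefSeq genome WBcel235, the same assembly as ce11, at the positions of the Ensembl annotation, and the seed is in capitals.
cel-mir-8196a 5′ arm: cCCCAUAGaaauauuuucuauguc
cel-mir-8196b 5′ arm: cCCAUAGAaauauuuucuauguc
cel-mir-8196a 3′ arm: gUAGUUAAuuuuucuuugggaau
cel-mir-8196b 3′ arm: uGUAGUUAauuuuuucuuugggaa
The 5′ arms aligned with 23 identical bases over 24 columns, with 1 gap and 0 mismatches. The 3′ arms aligned with 22 identical bases over 25 columns, with 3 gaps and 0 mismatches. The annotated 5′ bases are offset by 1 position between the genes in both arms, so the seeds as annotated differ although the sequences around them are shared. The seeds were CCCAUAG and UAGUUAA for cel-mir-8196a and CCAUAGA and GUAGUUA for cel-mir-8196b. Among 458 annotated arms with 374 distinct seeds, none of the 4 seeds was the annotated seed of an arm of another miRNA gene. Each of the 4 did lie within an arm of the other gene of the pair, shifted by 1 position.

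The whole hairpins, with both arms in capitals, show that most of the loop between the arms is shared as well.
cel-mir-8196a hairpin: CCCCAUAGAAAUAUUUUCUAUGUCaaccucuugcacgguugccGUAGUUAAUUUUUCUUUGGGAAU
cel-mir-8196b hairpin: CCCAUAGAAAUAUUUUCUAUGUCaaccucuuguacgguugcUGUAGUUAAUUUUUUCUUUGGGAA
They aligned with 62 identical bases over 67 columns (92.5%), with 2 mismatches and 3 gaps. Predicted minimum free energies were -25.3 kcal/mol for the 66 bases of cel-mir-8196a and -21 kcal/mol for the 65 bases of cel-mir-8196b, with 22 predicted base pairs in each. Both are computed folds, and no RNA was measured in this series.

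The 120 bases upstream of each annotated 5′ end are shown because the ChIP-seq summits lie in them. Capitals mark the best match to a promoter matrix described below.
cel-mir-8196a upstream: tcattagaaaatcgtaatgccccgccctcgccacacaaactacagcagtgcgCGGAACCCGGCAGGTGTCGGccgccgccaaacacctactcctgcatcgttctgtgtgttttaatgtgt
cel-mir-8196b upstream: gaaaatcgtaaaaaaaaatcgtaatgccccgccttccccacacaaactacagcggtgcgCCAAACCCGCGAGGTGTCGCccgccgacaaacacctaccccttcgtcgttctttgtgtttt
These stretches aligned with 97 identical bases over 127 columns (76.4%). Identity was 60.4% over the 280 bases further upstream and 67.9% over the annotated genes, so the hairpin was more alike than the promoter or the gene as a whole. Gaps count as columns in these shares. Over the annotated genes, which are 131 and 163 bp long, 36 of 165 columns were gaps and 17 were mismatches, so the difference in annotated length lowers that share. The best local alignment ran from offset -345 to offset 224 from the 5′ end of cel-mir-8196a, with 448 identical bases over 618 columns (72.5%), and the longest run of shared bases was 32.

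The gene cel-mir-8196a (WBGene00220055) occupies X:2328994-2329124 on the plus strand and is 131 bp long. It overlaps 99 bp of linc-154, an annotated long intergenic non-coding RNA on the same strand whose 5′ end lies 2250 bp upstream. The nearest 5′ end to its other side belongs to the non-coding RNA gene T01B6.5, at 1866 bp. The gene cel-mir-8196b (WBGene00219810) occupies X:14324355-14324517 on the minus strand and is 163 bp long. It lies antisense within an intron of 1764 bp of prx-1, a protein-coding gene on the plus strand. The nearest 5′ ends are those of the protein-coding genes C11H1.7, at 2892 bp, and C11H1.9, at 4119 bp, so neither miRNA gene had an annotated protein-coding 5′ end in the window that its region spans.

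The region at cel-mir-8196b was among the strongest of every list. Regions were ranked by the deposited signal, an arbitrary unit set by the authors' caller, with a scale that differs between lists. The pooled region covered X:14324481-14324657, had a signal of 217 and ranked 35 of 30000. Many regions above it were mitochondrial, and among nuclear regions it ranked 11. In replicate 1 its signal was 77.2, at rank 41, and in replicate 2 it was 156, at rank 33. It was the region of highest signal on X in all of these lists, and its signal was 16.1 times the list median in the pooled list, 12.2 times in replicate 1 and 15.1 times in replicate 2.

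The region at cel-mir-8196a was weaker and varied more between replicates. Its pooled region covered X:2328867-2329004, with a signal of 140, rank 84 of 30000 and rank 59 among nuclear regions. In replicate 1 its signal was 38.5, at rank 189, and in replicate 2 it was 104.8, at rank 70. On X it ranked 3 in the pooled list, 18 in replicate 1 and 2 in replicate 2. The rank averaged 129.5 ± 84.1 for cel-mir-8196a and 37 ± 5.66 for cel-mir-8196b (SD, n = 2 each). Signal at cel-mir-8196b was 1.55 times that at cel-mir-8196a in the pooled list, 2.01 times in replicate 1 and 1.49 times in replicate 2. The order of the genes was thus the same in both replicates, but 2 replicates set no usable error on the ratio. The deposited −log10 q-value was at the maximum of its list for both genes in every list, 3.42 in the pooled list, 3.03 in replicate 1 and 3.59 in replicate 2, and so did not rank them.

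Both IDR peaks stand apart from the tRNA genes that hold most peaks on X. Of 194 IDR peaks on X, 154 had their summit within 250 bp of a tRNA gene and 40 did not. Among those 40, the peak at cel-mir-8196b had the highest signal and that at cel-mir-8196a the next. The short RNA genes nearest to them in pooled rank were 4 snoRNA genes, 1 snRNA gene and 1 gene annotated only as non-coding RNA. Next to cel-mir-8196b stood the snoRNA genes C08D8.3 at rank 34 with signal 227, C16D9.11 at rank 32 with signal 239 and T08B6.64 at rank 37 with signal 209. Next to cel-mir-8196a stood the snoRNA gene T26A8.6 at rank 85 with signal 139, and, at rank 83 with signal 142, the snRNA gene Y57G11C.35 together with a non-coding RNA gene that overlaps it.

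Reading outward from the 1 kb limit, the weakest region inside it was a replicate 2 candidate 977 bp from cel-mir-8196b, with signal 7.38 and rank 26852. The nearest outside it was a replicate 1 candidate 1241 bp from the same gene, with signal 8.76 and rank 6982. The nearest outside cel-mir-8196a was a pooled candidate 1340 bp away, with signal 11.5 and rank 20561. These are in the body of the lists, and no second IDR peak lay within 2 kb of either gene.

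The summits of both genes fell just upstream of the annotated 5′ end. At cel-mir-8196a the summit was 48 bp upstream in the pooled list, 70 bp upstream in replicate 1 and 48 bp upstream in replicate 2. At cel-mir-8196b it was 60 bp upstream in the pooled list, 54 bp upstream in replicate 1 and 49 bp upstream in replicate 2. As offsets below 0, these averaged -59 ± 15.6 bp for cel-mir-8196a and -51.5 ± 3.54 bp for cel-mir-8196b (SD, n = 2 each), a difference smaller than the spread at cel-mir-8196a. The replicate 1 region at cel-mir-8196a had the list's commonest width of 270 bp, with the summit 0.5 bp from its midpoint. The remaining regions of highest signal at the pair were narrower, 117 to 177 bp wide. In the pooled list 0.623% of regions were narrower than the commonest width of 276 bp, but among the IDR peaks 10.8% were. Both members were among them, at 138 bp for cel-mir-8196a and 177 bp for cel-mir-8196b, so a narrow region was not particular to the pair.

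**Figure D1:**
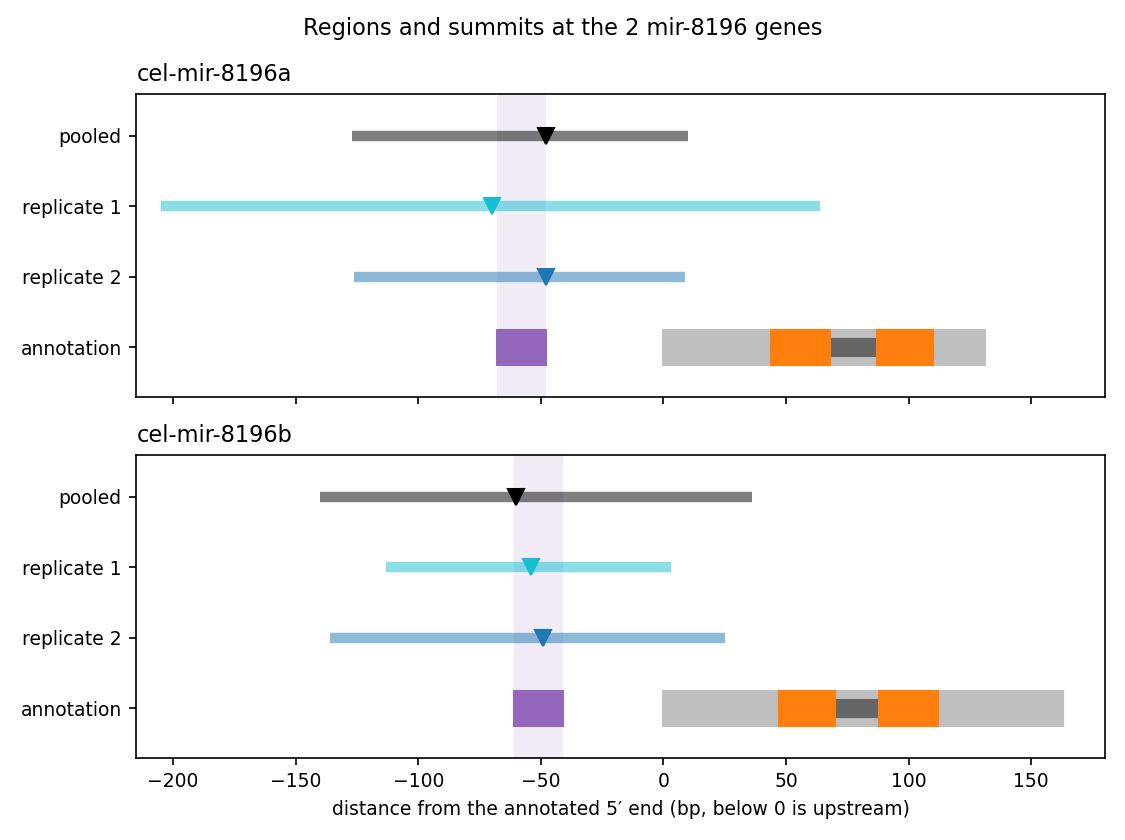
Regions and summits at both mir-8196 genes, drawn to scale by distance from the annotated 5′ end in bp. Bars are regions and triangles summits in the pooled list and each replicate; the light grey box is the gene, orange boxes the arms, the dark grey box the loop between them and purple the best match to the promoter matrix, which the region of highest signal in every list covers.

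Next, the sequence under the summits was compared with that of known SNAPc promoters. A matrix of 20 positions was learned by expectation maximisation from the 120 bases upstream of 129 annotated snRNA and SL RNA genes (119 distinct windows), without any ChIP-seq value and without the miRNA genes. The matrix held 15.8 bits of information, and 7 of its positions had a single base at a share of 0.8 or more. Each gene was given the score of its best match on the sense strand, in bits, where a higher score is a closer match.

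The best match upstream of cel-mir-8196a scored 24.2 bits and lay at X:2328926-2328945, from 68 to 49 bases upstream. It shared 17 of 20 bases with the commonest bases of the matrix, and 56 of 46886 gene windows (0.119%) scored as high. The best match upstream of cel-mir-8196b scored 17.4 bits and lay at X:14324559-14324578, from 61 to 42 bases upstream. It shared 16 of 20 bases with the matrix, and 168 of 46886 windows (0.358%) scored as high. When the pair was aligned, both matches began at the same column, since the annotated 5′ end of cel-mir-8196b lies 7 bases further upstream in the alignment than that of cel-mir-8196a. The windows on either side of this column were homologous, so these are not independent matches.

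The summit lay close to the centre of the match in each list. At cel-mir-8196a it was 10.5 bp downstream of the centre in the pooled list, 11.5 bp upstream of it in replicate 1 and 10.5 bp downstream in replicate 2. At cel-mir-8196b it was 8.5 bp upstream of the centre in the pooled list, 2.5 bp upstream in replicate 1 and 2.5 bp downstream in replicate 2. The region of highest signal at each gene covered the whole match in every list.

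The matched sites are set beside those of an SL2 RNA gene (sls-2.8), an snRNA gene (sup-6) and a snoRNA gene (Y53F4B.47), which in each class had the IDR peak of highest signal among the eligible genes scoring at least as high as cel-mir-8196b. Capitals mark the 12 of 20 positions with the same base in all 5 sites.
cel-mir-8196a: CggAACCCGgcAggTGTCgg
cel-mir-8196b: CcaAACCCGcgAggTGTCgc
sls-2.8: CggAACCCGgcAaaTGTCcg
sup-6: CggAACCCGccAcaTGTCgg
Y53F4B.47: CggAACCCGtcActTGTCtg
The site of cel-mir-8196a was identical to those of sls-2.8 and sup-6 at 17 of 20 positions, and to that of Y53F4B.47 at 16. The site of cel-mir-8196b was identical to them at 12 positions for sls-2.8, 14 for sup-6 and 12 for Y53F4B.47. These 3 genes were picked by their score on the same matrix, which SL2 RNA and snRNA genes had trained. Likeness at its conserved positions was therefore largely fixed beforehand. The site began 59 bases upstream at sup-6, whose summit lay 13 bp downstream of its 5′ end, and 80 bases upstream at Y53F4B.47. The sites of the pair differed at 5 positions, written from cel-mir-8196a to cel-mir-8196b and counted from 1 at the 5′ end of the site as G2C, G3A, G10C, C11G and G20C. The gene with the lower matrix score was thus the one with the higher ChIP-seq signal in every list.

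Apart from cel-mir-8196a and cel-mir-8196b, none of the 261 miRNA genes had both an IDR peak within 250 bp and a match at least as high as that of cel-mir-8196b. An IDR peak lay within 1 kb of 26 of 261 miRNA genes, 2 of 2 members included, which is 9.96% (exact Clopper-Pearson 95% interval 6.61 to 14.3). Within 250 bp it was 16 of 261, or 6.13% (interval 3.54 to 9.76). Since the rule chose the pair by its peaks, nothing is read from the members' count here. A match at least as high as that of cel-mir-8196b was found at 3 of 261 miRNA genes (1.15%), namely the pair and cel-mir-2219. The limit is the lower member's own score, so both members pass by construction and nothing is read from that share. Without them it was 1 of 259 miRNA genes (0.386%), near the 0.358% of all annotated nuclear genes. The match of cel-mir-2219 scored 25.7 bits at 113 bases upstream, and no pooled candidate had its summit within 250 bp of that gene.

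The 14 other miRNA genes with an IDR peak within 250 bp lacked such a match. Their peak signals ran from 40.8 to 149.9 with a median of 48.5, against 140 at cel-mir-8196a and 217 at cel-mir-8196b. Their best matches scored -6.41 to 4.34 bits with a median of -0.77, and 0 of 14 reached the score of cel-mir-8196b. Only 0.358% of all annotated nuclear genes reached it, so 0 of 14 is near that share and nothing is read from it. At 11 of the 14 the summit was also at another short RNA gene or within 500 bp of a protein-coding 5′ end. These include overlapping miRNA genes on opposite strands, which share the peak of rank 1363 and count only through each other. Only 2 of the 14 had the summit between 75 and 35 bp upstream, where both pooled summits of the pair lay. The strongest of them, at cel-mir-5549, had signal 149.9 at rank 70, a summit 5 bp upstream of the miRNA gene and a summit 163 bp upstream of the protein-coding gene rfc-4. Next came cel-mir-51 with signal 68.0 at rank 594, cel-mir-4936 with signal 64.0 at rank 678, mir-2214 with signal 57.9 at rank 836 and cel-mir-54 with signal 55.1 at rank 928. Their matches scored 0.73, 2.73, 1.71 and -5.46 bits in that order, against -2.75 bits at cel-mir-5549.

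**Figure D2:**
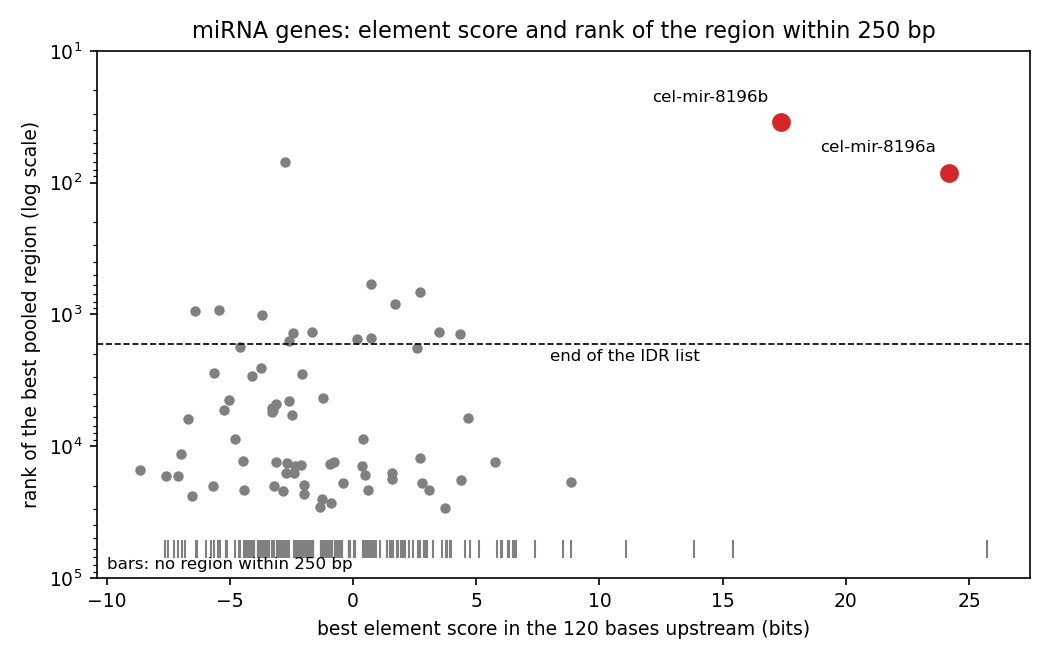
Each of the 261 miRNA genes by its best upstream match in bits (horizontal) and the rank of its pooled region of highest signal within 250 bp (vertical, log scale, rank 1 towards the top). Points are genes with such a region, the row of short bars at the foot holds genes with none and carries no rank, and the dashed line is the end of the IDR list at rank 1676; the pair, in red, lies alone at the upper right.

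The height and place of the match at the pair were then set beside those of other RNA classes. A score at least as high as that of cel-mir-8196b was found at 10 of 18 SL2 RNA genes (55.6%), 59 of 99 snRNA genes (59.6%), 36 of 346 snoRNA genes (10.4%) and 2 of 612 tRNA genes. None of the 12 SL1 RNA genes, which also trained the matrix, reached it, and 0 of 12 had an IDR peak within 250 bp. Their highest score, 8.58 bits, was also their median. Whether reads can be placed uniquely at SL1 RNA genes was not checked, so absence of SNPC-1.3 there is not read from this. The median start of matches at or above the score of cel-mir-8196b was 62 bases upstream at SL2 RNA genes and 61 at snRNA genes, against 68 and 61 at the pair. SL RNA and snRNA genes trained the matrix, so their scores are not independent of it, whereas genes annotated as snoRNA or miRNA did not enter it. Some smy genes are annotated as snoRNA while others, annotated as snRNA, trained the matrix, so the snoRNA class may not be wholly independent. Of the 36 snoRNA genes with such a match 31 had an IDR peak within 250 bp (86.1%), against 57 of the 310 below that score (18.4%). At snRNA genes a peak was found at 29 of 59 with such a match (49.2%), against 3 of 40 below the score, and at SL2 RNA genes at 9 of 10, against 5 of 8 (62.5%). The tRNA genes did not follow this order, with a peak at 1 of 2 with such a match, against 348 of 610 below the score (57.0%). At short genes annotated only as non-coding RNA it was 8 of 16, against 375 of 7638 (4.91%). With such a match, 4 of 27 piRNA genes (14.8%) had a peak, against 48 of 15336 below the score (0.313%). At protein-coding genes it was 4 of 13 (30.8%), against 1441 of 19960 (7.22%). A summit anywhere in the gene counted, and those 4 lay 26.5 to 8319.5 bp downstream of the centre of the match (median 1375.5 bp). A match of this height thus often stood without a peak. The summit was a median of 0.5 bp upstream of the centre of the match at SL2 RNA genes, 16.5 bp downstream of it at snoRNA genes and 31.5 bp downstream at snRNA genes, where it ran from -3.5 to 354.5 bp. No test was run on these shares.

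**Figure D3:**
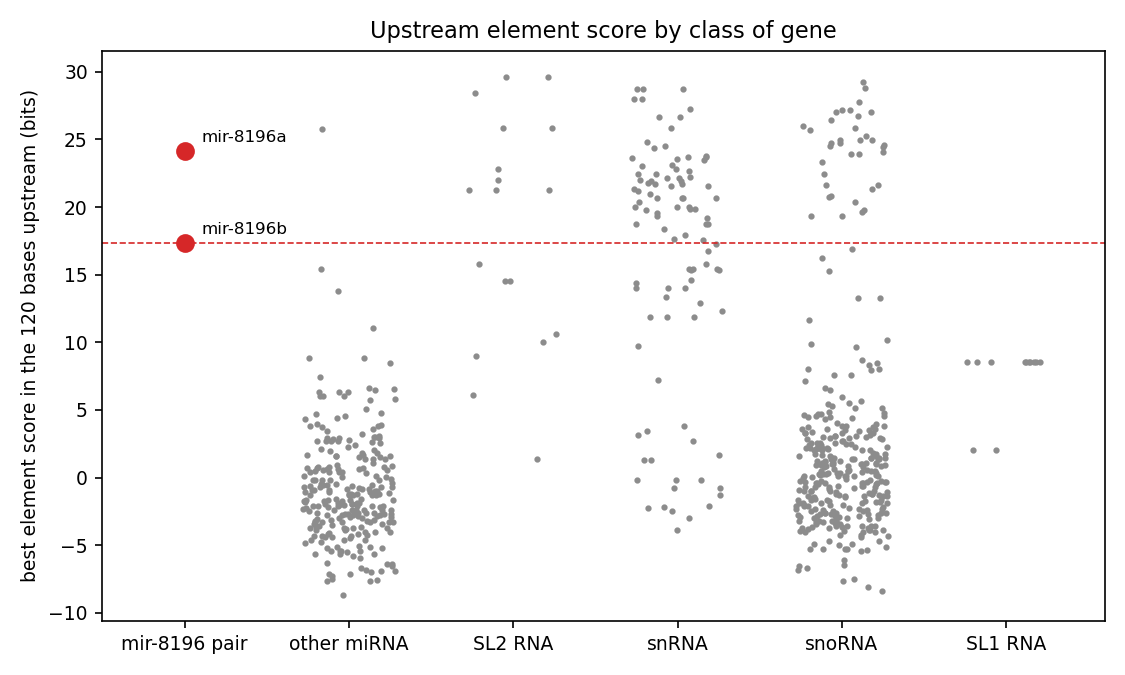
Best upstream match to the promoter matrix, in bits, for both mir-8196 genes (red) and for every gene of 5 other sets (grey, with random horizontal spread). The dashed line is the score of cel-mir-8196b, 17.4 bits, above which lie 1 other miRNA gene, 10 of 18 SL2 RNA genes and 36 of 346 snoRNA genes.

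The motif TATA, which reads the same on both strands, was absent between the match and the 5′ end of both genes, in 48 bases at cel-mir-8196a and 41 bases at cel-mir-8196b. In the last 42 bases before the 5′ end it was present at 34.3% of snRNA genes, 16.7% of SL2 RNA genes, 13.9% of snoRNA genes and 21.8% of all annotated nuclear genes.

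The promoters of the pair had close relatives elsewhere on X. In an ungapped comparison with the upstream 120 bases of 24490 short RNA genes, the most alike to cel-mir-8196b were T21F2.3, an annotated snoRNA gene, with 98 of 120 bases identical, cel-mir-8196a with 95 of 113 and K08B5.8, an annotated non-coding RNA gene, with 85 of 119. The same genes led for cel-mir-8196a, with 95 of 113 bases identical to T21F2.3, 95 of 113 to cel-mir-8196b and 84 of 114 to K08B5.8. The median over all of these genes was 36 identical bases to cel-mir-8196b and 35 to cel-mir-8196a.

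A search of the genome with each gene and its promoter followed, and it was made after the peaks had been seen. Besides the pair it found 4 loci that matched over at least 200 bases, and all 6 loci are on X. They are T21F2.3 (X:16721946-16722222), K08B5.8 (X:16564631-16564888) and 2 loci where no gene is annotated, called A (X:16565891-16566163) and B (X:16566504-16566763). The stretches matching the hairpin of cel-mir-8196a were identical to it at 92.5% of columns in T21F2.3, 91.2% in B, 86.8% in A and 85.5% in K08B5.8, against 94.0% in cel-mir-8196b by the same alignment. The bases of the 5′ arm were identical at 22 of 24 in T21F2.3, 23 in B, 19 in A and 20 in K08B5.8. The search also returned 2 shorter matches around the site of cel-mir-8196a, over 53 columns at IV:867168-867220 and 64 columns at II:13521986-13522048, with IDR peaks of rank 52 and 417 there. No small RNA was measured, so whether a hairpin is made at these loci was not tested.

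The sites matching the promoter matrix are shown for all 6 loci, with capitals at the 13 of 20 positions that are the same in all of them.
cel-mir-8196a: CggAACcCGgcAGgTGTCGg
cel-mir-8196b: CcaAACcCGcgAGgTGTCGc
T21F2.3: CaaAACcCGcgAGgTGTCGg
locus A: CggAACtCGcgAGgTGTCGg
K08B5.8: CggAACcCGcgAGtTGTCGg
locus B: CggAACcCGcgAGgTGTCGg
Counted from the base that matches the 5′ end of cel-mir-8196a, the site began 68 bases upstream at 5 of the loci and 66 bases upstream at B. It scored 25.7 bits at T21F2.3, 27.5 at A, 28.8 at K08B5.8 and 29.3 at B, all above the 24.2 bits of cel-mir-8196a and the 17.4 bits of cel-mir-8196b. Pooled summits lay downstream of the centre of the site, by 4.5 bp at T21F2.3, 2.5 bp at A and 27.5 bp at K08B5.8 and at B. The replicate summits farthest from the centre of the site at these loci were those of A in replicate 1, 96 bp downstream of the base that matches the 5′ end of cel-mir-8196a, and of K08B5.8 in replicate 2, 98 bp upstream of that base.

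Each of the 6 loci had an IDR peak of its own, which for the pair was fixed beforehand because the rule chose it by its peaks. None of those peaks was at a tRNA gene, so that they made up 6 of the 40 such peaks on X. For comparison, an IDR peak lay within 250 bp of 88 of 346 snoRNA genes (25.4%). It did so at 383 of 7658 short genes annotated only as non-coding RNA (5.00%). After the pair, at pooled ranks 35 and 84, came T21F2.3 at rank 165 with signal 111, A at rank 352 with signal 84.5, K08B5.8 at rank 369 with signal 83.2 and B at rank 1439 with signal 43.2. In replicate 1 the other loci ranked 174 (T21F2.3), 476 (A), 253 (K08B5.8) and 1194 (B), and in replicate 2 they ranked 184, 239, 439 and 2037 in the same order. The regions of T21F2.3 therefore ranked above that of cel-mir-8196a in replicate 1 and below it in replicate 2. Pooled signal and matrix score ran in opposite orders across the 6 loci, which are related in sequence and too few to test. Stretches of 31 bases occurred once in the genome for all of the pooled regions at cel-mir-8196a, cel-mir-8196b, T21F2.3, K08B5.8 and A, and for 99.2% of that at B. Reads of that length from one of these regions would therefore rarely have been placed at another, but the length of the reads is unknown here.

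**Figure D4:**
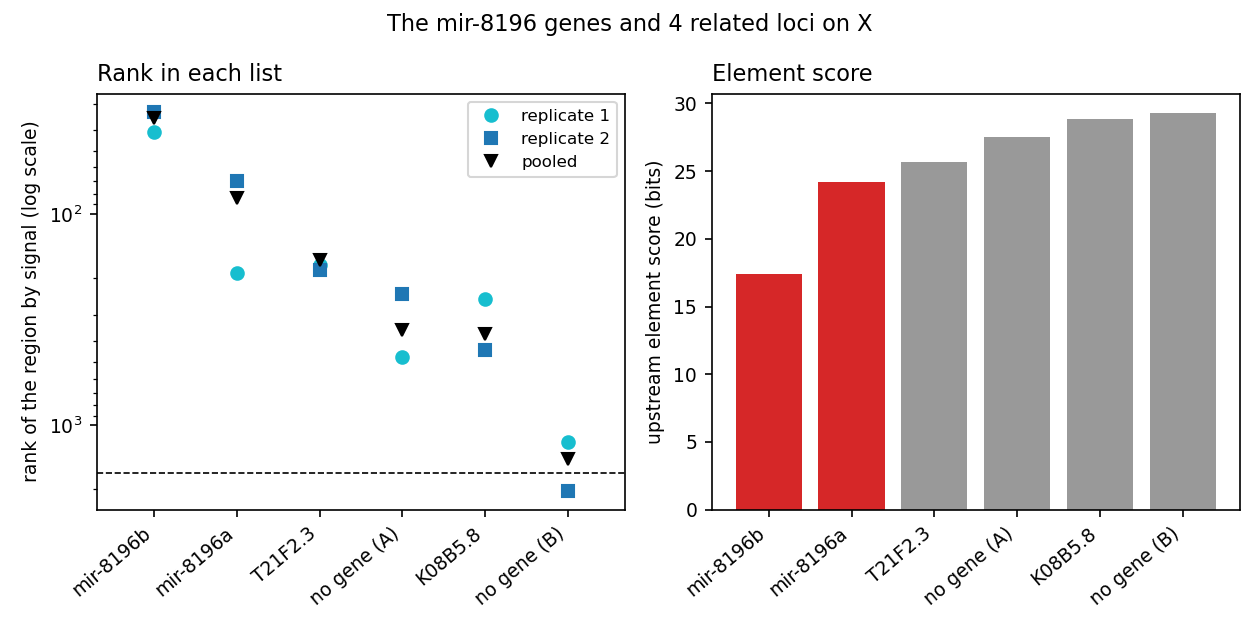
The mir-8196 genes and the 4 related loci on X, in order of IDR signal. The left plot gives the rank of the region in each list (log scale, rank 1 towards the top, dashed line at rank 1676); the right plot gives the matrix score in bits, with the pair in red and the score highest at locus B, which ranks lowest.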

How the data were processed

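SNPC-1.3 ChIP-seq peak lists on ce11 from 1 group of 2 biological replicates were analysed; the members and lists were chosen with earlier results of these data known. The authors called regions for each replicate and for both pooled against 1 control, and took the IDR peaks from these lists, per the text notes deposited with them. Which aligner, caller and IDR threshold they used is not stated in the labels or notes at hand, and read counts are lacking, so depth is unknown. The deposited lists give each region a signal value, in the caller's unit, a −log10 q-value and a summit; most regions have a fixed width with the summit at the midpoint. Signal was used only within a list. Lists on ce10 were not used.

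Regions were joined to the Ensembl release 115 annotation, and sequences were read from the RefSeq WBcel235 genome; 0 regions ran past a chromosome end. Offsets were taken from the summit to the annotated 5′ end, and starts were converted to positions counted from 1. Classes were assigned by a summit within 250 bp of a gene, and short RNA genes were those of up to 500 bp. The promoter matrix used 20 positions, 1 site per window and the sense strand, with the code tested on simulated data. Related loci came from BLAST+ 2.17.0 (e-value at most 1e-05), folds from RNAfold 2.7.2 and alignments from Biopython 1.88, with scipy 1.17.1 and numpy 2.4.6. Named besides the pair were the 3 short RNA genes nearest in pooled rank to each member, the 3 most alike upstream, the 5 other miRNA genes of highest IDR signal and the neighbouring genes; the gene cel-mir-2219, the comparison genes sls-2.8, sup-6 and Y53F4B.47 (picked among genes outside chromosome I) and the loci A and B were added after values were seen. Alternatives were other summit windows, lists, matrix widths, upstream lengths and training genes. Intervals cover counting error only.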

Additional observations from a re-analysis of the deposited data

How the results depend on the processing

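No paired analysis was possible because there is 1 group. The IDR peak at both members was kept under summit windows of 250 bp and 2 kb and under any overlap. Since the summits lay 48 and 60 bp from the genes and the regions overlapped them, this was fixed beforehand and nothing is read from it. With 1 replicate left out, the rank at cel-mir-8196a ran from 70 to 189 and at cel-mir-8196b from 33 to 41, and the summit offset from -70 to -48 bp and from -54 to -49 bp. The share of miRNA genes with an IDR peak was 14.2% with 2 kb, 6.13% with 250 bp, 4.60% by any overlap and 3.83% with the 838 strongest peaks. With 1 replicate left out, the 1676 strongest candidates of the other stood in for the IDR peaks. The share with such a candidate was 8.81% for either replicate. The share of gene windows scoring at or above cel-mir-8196a was 0.198% with a matrix of 15 positions and 0.0853% when training windows at least 60% identical were counted once, an alternative chosen after seeing the data. For cel-mir-8196b it was 0.508% with 15 positions, 0.296% with 25, 0.533% with 200 bases upstream, 0.239% with snRNA genes alone and 0.237% with SL RNA genes alone in training. The cause was not tested. Of 31 alternative values 16 stayed within the replicate SD, the counting interval or 1.5 times, and 15 moved outside. The 16 include the counts of members with an IDR peak, which could not have moved. Ranks and summit offsets with 1 replicate left out are the replicate values themselves, judged by the SD of those same values. Whether they stayed or moved thus reflects mainly where the pooled value lies relative to them. Depth per sample is unknown, so no limit of detection can be given.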
